A study of Rattus norvegicus with 6 samples.

Results

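The CCN family is a group of secreted, cysteine-rich matricellular proteins, and its members were taken as the rows of the gene count table named Ccn1 (also Cyr61), Ccn2 (Ctgf), Ccn3 (Nov), Ccn4 (Wisp1) and Ccn5 (Wisp2). All 5 genes were found among the 33565 rows, and all 5 were among the 15075 genes with enough counts to be tested. The cells were heart cells labelled primary cardiomyocytes, taken from Sprague-Dawley rats of postnatal day 7 and grown in medium with 10% fetal bovine serum. Of these, 3 control samples received vehicle and 3 progesterone samples received 100 nM progesterone, a steroid hormone, each for 24 h, and mRNA was sequenced. The labels call the 3 samples of a group biological replicates and do not say whether they came from separate animals or cultures, so each p-value reflects only how far these particular samples scattered, and that scatter may be technical. YAP, named in the series title, is a coactivator of the Hippo pathway that binds DNA through TEAD factors, and Ccn1 and Ccn2 are widely used as readouts of that pathway.

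CCN proteins are built from an insulin-like growth factor binding module, a von Willebrand factor type C module, a thrombospondin repeat and, in all members but Ccn5, a cysteine-knot module at the C terminus. They bind integrins and heparan sulfate proteoglycans at the cell surface and alter adhesion, migration and matrix production. In the heart, Ccn2 is known for its rise in fibrosis, Ccn1 for its rise after injury, and Ccn5 as a member that opposes fibrosis.

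With progesterone, Ccn1, Ccn2, Ccn3 and Ccn4 rose and none of the 5 fell, while Ccn5 did not pass the test. The rise was 3.72-fold for Ccn2, 3.30-fold for Ccn1, 2.31-fold for Ccn3 and 1.5-fold for Ccn4, and the fitted ratio for Ccn5 was 1.05. The count of 4 called of 5, all higher, stands beside 63.0% of all genes tested that were called either way, 31.2% higher and 31.8% lower, at an adjusted p under 0.05 (edgeR's quasi-likelihood test, Benjamini-Hochberg adjustment over all genes tested). The median log2 fold change of the 5 members was 1.21, against 0.0033 over all genes tested. Libraries held between 21156793 and 25376220 counts, and no member had fewer than 490 counts in any library. The RNA is that of whole cultures, in which fewer cells of a type and less RNA per cell cannot be told apart.

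**Figure D1:**
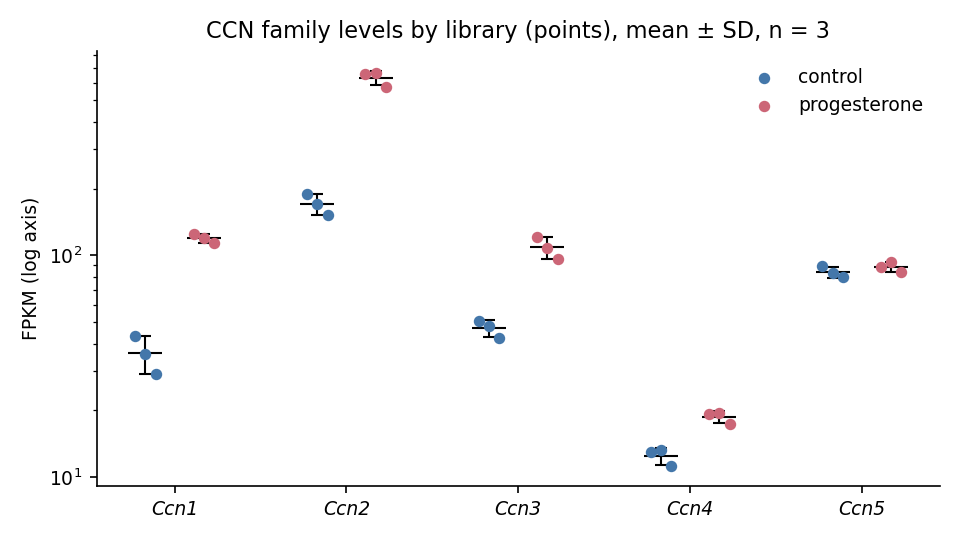
Level of each CCN gene in FPKM (counts scaled to gene length and library total, log axis) in the 3 control and 3 progesterone libraries; points are libraries, horizontal marks are means and bars are SD. The progesterone points lie above all control points for Ccn1 to Ccn4, and the groups of Ccn5 overlap.

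Ccn2 encodes connective tissue growth factor, a secreted protein that acts with TGF-beta in matrix deposition, and it was the most abundant member in both groups. Its row lies on chromosome 1 (21851660 to 21854773, minus strand, in a rat build that the table does not name). The control libraries read 188, 170 and 151 FPKM and the progesterone libraries 655, 665 and 576 FPKM. The lowest progesterone library was 3.06 times the highest control library. The means were 170 ± 18.3 and 632 ± 48.9 FPKM (SD, n = 3), and the log2 fold change was 1.89 ± 0.09 (SE; edgeR adjusted p = 7.56e-07). In the order of all rows by mean FPKM, Ccn2 stood at place 447 in the controls and at place 110 with progesterone. Of all genes tested, 292 (1.94%) had a larger log2 fold change.

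Ccn1 encodes a ligand of several integrins that is transcribed within minutes of serum or growth factor stimulation. Its row lies on chromosome 2 (251529354 to 251532312, minus strand). The control libraries read 43.3, 36.0 and 29.3 FPKM and the progesterone libraries 125, 120 and 114 FPKM. The groups were far apart, but the controls were spread widely. Their coefficient of variation was 19.4%, against 4.47% with progesterone, where counting alone would give 2.40% and 1.39%. Among the 7469 genes tested with a mean of at least 500 counts, the median coefficient of variation in the controls was 3.89% and the 90th percentile 8.18%. The means were 36.2 ± 7.02 and 119 ± 5.34 FPKM (SD, n = 3), with a log2 fold change of 1.72 ± 0.15 (SE; edgeR adjusted p = 0.0005) and a 95% interval of the fold from 2.48 to 4.39.

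The stretches just upstream of the starts of these 2 genes are shown because both genes rose and both are read as reporters of YAP and TEAD. Promoters of 2 of the 5 members, Ccn1 and Ccn2, were matched by symbol in RefSeq (build GRCr8). The 250 bases before the gene start are written 5′ to 3′ in the direction of transcription, with matches to the motifs searched in capitals, chr1:22624615-22624864 on the minus strand for Ccn2 and chr2:237225690-237225939 on the minus strand for Ccn1.
Ccn2: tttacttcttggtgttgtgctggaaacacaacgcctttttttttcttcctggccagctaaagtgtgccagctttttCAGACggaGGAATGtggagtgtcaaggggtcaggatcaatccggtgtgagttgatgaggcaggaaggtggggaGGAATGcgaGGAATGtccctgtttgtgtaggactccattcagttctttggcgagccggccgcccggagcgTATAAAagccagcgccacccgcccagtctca
Ccn1: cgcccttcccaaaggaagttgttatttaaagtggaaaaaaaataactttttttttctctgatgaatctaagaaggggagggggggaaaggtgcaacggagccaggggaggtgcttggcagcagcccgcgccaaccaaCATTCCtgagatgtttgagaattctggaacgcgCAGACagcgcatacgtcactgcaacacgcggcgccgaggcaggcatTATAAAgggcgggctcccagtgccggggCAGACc
On both strands, 5 motifs were searched, the TEAD motif GGAATG, the AP-1 motif TGANTCA, the SMAD motif CAGAC, the TATA box TATAAA and the CArG box bound by SRF. The Ccn2 stretch held 3 TEAD matches on the coding strand, whose first bases lie 166, 101 and 92 bases before the start, 1 SMAD match 174 bases before it and 1 TATA box 31 bases before it. The Ccn1 stretch held 1 TEAD match, on the opposite strand (CATTCC, from 113 bases before the start), SMAD matches 80 and 6 bases before it, and a TATA box 34 bases before it. No AP-1 or CArG letters were found in either window, and no matches overlapped.

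Over 33469 RefSeq promoters of the same length, 12.1% held at least 1 TEAD match and 0.0807% held 3 or more. The SMAD letters were in 42.9%, the TATA box in 12.9%, the AP-1 letters in 6.34% and the CArG box in 1.5%. The share of genes called higher was also read with and without each motif, and the part of the motifs in the responses was not tested. Of the tested genes matched to a promoter, 10284 in number, 31.1% of those with a TEAD match were called higher and 33.1% of those without. Their median log2 fold changes were -0.01 and 0.0034. The shares called higher with and without a match were 43.2% and 32.8% for the CArG box and 37.2% and 32.6% for the TATA box. They were 32.0% and 33.6% for the SMAD letters and 28.5% and 33.1% for the AP-1 letters. The tested genes with a match numbered 118 for the CArG box, the smallest set, and 449 for the AP-1 letters. They numbered 677 for the TATA box, 1024 for the TEAD motif and 4317 for the SMAD letters. A match is a description of letters, and no binding was measured here.

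**Figure D2:**
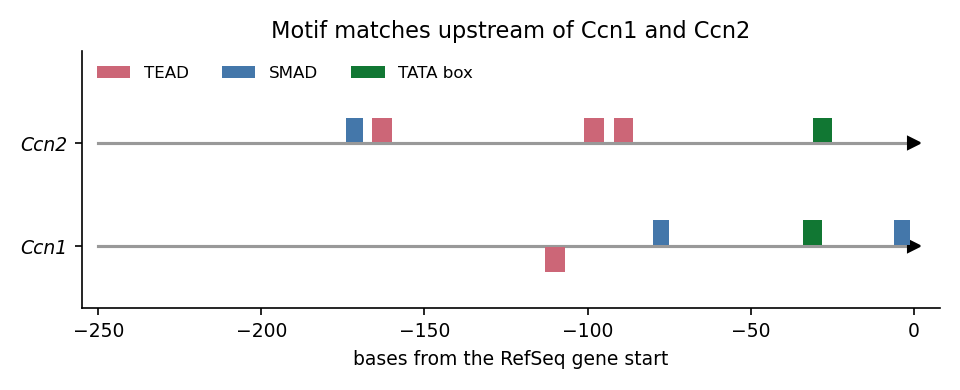
Positions of the motif matches in the 250 bases before the RefSeq starts of Ccn1 and Ccn2 (x axis, bases from the start); blocks above the line are matches on the coding strand, blocks below it on the opposite strand, and the arrowhead is the gene start. Ccn2 has 3 TEAD blocks and Ccn1 has 1.

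Ccn3, the product of which binds integrins and Notch1 and restrains proliferation in many cell types, was intermediate in its rise. Its row lies on chromosome 7 (94375020 to 94383024, plus strand). The control libraries read 50.6, 48.0 and 42.2 FPKM, and the progesterone libraries 121, 108 and 96.6 FPKM. The lowest progesterone library was 1.91 times the highest control library. The log2 fold change was 1.21 ± 0.10 (SE; edgeR adjusted p = 6.15e-05), and 5.51% of all genes tested had a larger one.

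Ccn4, first described as a gene induced by Wnt-1, was the least abundant member in every library. It lies on the same chromosome as Ccn3 (107695215 to 107723772, plus strand). The control libraries read 12.9, 13.3 and 11.2 FPKM, and the progesterone libraries 19.3, 19.5 and 17.4 FPKM. The groups did not overlap, with the lowest progesterone library at 1.31 times the highest control library. The log2 fold change was 0.59 ± 0.07 (SE; edgeR adjusted p = 5.36e-06), and 14.5% of all genes tested had a larger one. The groups of 4 members did not overlap with progesterone the higher, which 33.6% of all genes tested showed (68.6% in either direction).

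Ccn5, the member without the C-terminal module, lies on chromosome 3 (160207913 to 160219331, plus strand). The control libraries read 89.2, 83.4 and 79.7 FPKM and the progesterone libraries 88.6, 93.2 and 84.0 FPKM, so that the groups overlapped. The log2 fold change was 0.08 ± 0.05 (SE; edgeR adjusted p = 0.199), and the 95% interval of the fold ran from 0.979 to 1.14. With upper quartile scaling, under which the median of all genes shifted to 0.10 on the log2 scale, Ccn5 passed at 0.17 (edgeR adjusted p = 0.00709), and the other members also lay higher. The sixth gene of the family, Ccn6, is outside the rule and had 3 counts over the control and 4 over the progesterone libraries, too few to be tested.

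**Figure D3:**
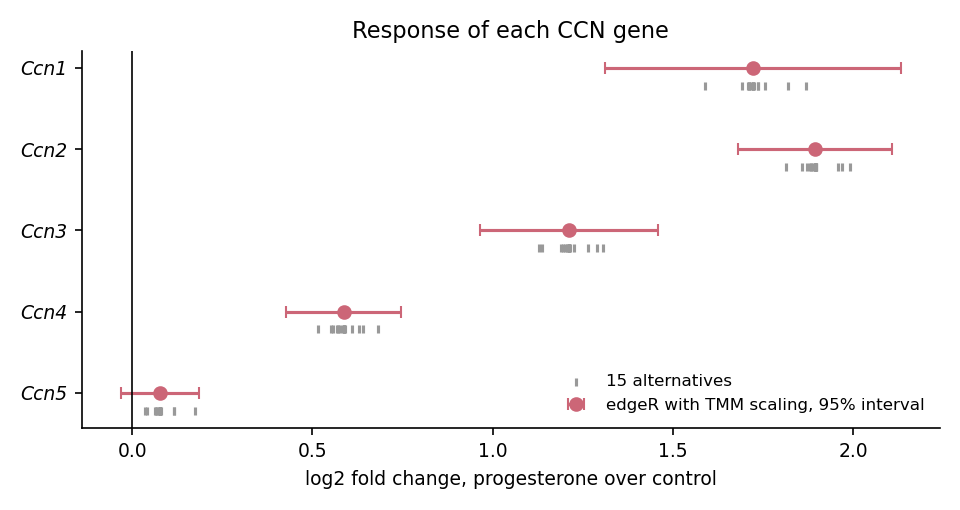
Log2 fold change of each CCN gene (progesterone over control) with its 95% interval from edgeR with TMM scaling (circles and bars), and the values under 15 alternative settings (grey ticks). The intervals of Ccn1 to Ccn4 lie above 0 and that of Ccn5 spans 0.

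The order of the levels per length changed. In the controls the order by mean FPKM was Ccn2 (170), Ccn5 (84.1), Ccn3 (46.9), Ccn1 (36.2) and Ccn4 (12.5), and the ranges of Ccn3 and Ccn1 overlapped between libraries. With progesterone it was Ccn2 (632), Ccn1 (119), Ccn3 (109), Ccn5 (88.6) and Ccn4 (18.8), and again the ranges of Ccn1 and Ccn3 overlapped between libraries. Within each library, however, Ccn1 lay below Ccn3 in all 3 controls (log2 ratio -0.53 to -0.22) and above it in all 3 progesterone libraries (0.05 to 0.24). Ccn1 lay below Ccn5 in every control library and above it in every progesterone library, and so did Ccn3. The mean log2 ratio of Ccn1 to Ccn5 was -1.23 ± 0.20 in the controls and 0.43 ± 0.07 with progesterone (SD, n = 3), and that of Ccn3 to Ccn5 was -0.84 ± 0.06 and 0.29 ± 0.14.

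Summed over the 5 members, the family's level was 350 ± 35.1 FPKM in the controls and 967 ± 68.9 FPKM with progesterone (SD, n = 3), a ratio of 2.77. Its make-up shifted towards Ccn2. Ccn2 was 49.0%, 48.5% and 48.3% of the summed FPKM in the controls and 64.9%, 66.1% and 64.8% with progesterone. Ccn5 was 23.2%, 23.7% and 25.4% in the controls and 8.79%, 9.27% and 9.47% with progesterone. The first share was higher and the second lower in every progesterone library than in any control. The share of Ccn1 moved from 10.3% ± 0.974 to 12.4% ± 0.477, that of Ccn3 from 13.4% ± 0.249 to 11.2% ± 0.678 and that of Ccn4 from 3.58% ± 0.205 to 1.94% ± 0.0195. The difference in the share of Ccn1 was 2.09 percentage points in FPKM and 1.18 when CPM, not scaled to length, was used. For each of the 5 shares the libraries of the groups did not overlap, while 68.6% of single genes tested did not overlap in either direction. The exact two-sided permutation test gave p = 0.1 for each share. That is the smallest that 3 against 3 libraries allow, so the design cannot reach 0.05. The 5 shares of a library add up to a fixed total, so they are not separate results. The shares of Ccn3 and Ccn4 fell although the levels of both genes rose.

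**Figure D4:**
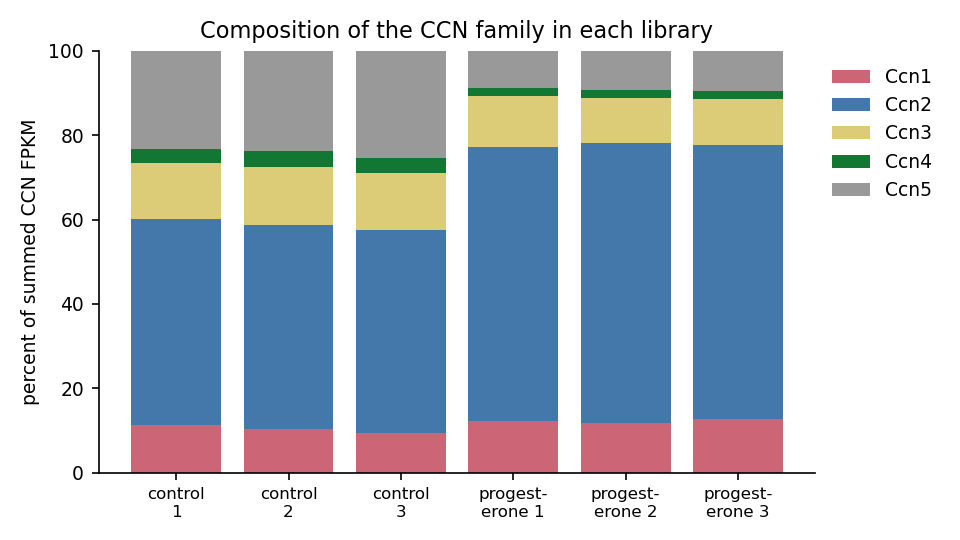
Share of each CCN gene in the summed FPKM of the family (y axis, percent) in each of the 6 libraries. Ccn2 takes 48.3% to 49.0% of the control bars and 64.8% to 66.1% of the progesterone bars, and Ccn5 shrinks from at least 23.2% to at most 9.47%.

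Whether the members differed in response was tested over all 10 pairs, as the change in the log2 ratio of their FPKM. In 9 of the 10 pairs the control and progesterone ratios did not overlap. The share of other gene pairs that would separate in this way was not measured, so the count has no background of its own. Of single genes tested, 68.6% did not overlap in either direction. The pairs reuse the same members, so they are not separate results. Each of the 9 pairs gave the smallest possible exact two-sided permutation p of 0.1, or 0.111 when adjusted over the 10 pairs. Their order was Ccn2 and Ccn1 above Ccn3, Ccn3 above Ccn4 by 0.62 on the log2 scale (95% interval 0.44 to 0.80), and Ccn4 above Ccn5 by 0.51 (0.35 to 0.67). Ccn2 exceeded Ccn3 by 0.69 (0.53 to 0.85), and Ccn1 exceeded Ccn3 by 0.53 (0.24 to 0.82). The exception was Ccn1 against Ccn2, where the change in ratio was -0.16 with an interval from -0.39 to 0.08 (exact permutation p = 0.2). These intervals rest on the SD of 3 libraries per group, and this one does not show that the 2 genes responded alike.

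The members shared their lowest libraries. In FPKM, control replicate 3 was the lowest control and progesterone replicate 3 the lowest progesterone library for all 5 members. Over all genes tested, control replicate 3 was lowest in 35.9%, progesterone replicate 3 in 31.9%, and both held in 13.1%. In the controls the gap of replicate 3 to the group mean was -19.1% for Ccn1, -10.9% for Ccn2, -10.1% for Ccn3, -9.93% for Ccn4 and -5.22% for Ccn5.

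The genes with the most similar profile were found by the root mean square distance between centred log2 CPM (counts scaled to the library total, not to length) over the 6 libraries, among 13774 other genes with a mean of at least 1 CPM. For Ccn2 these were Lmcd1 (distance 0.0349), a LIM domain cofactor of muscle, Diaph3 (0.0643), a formin that nucleates actin filaments, and Acta2 (0.067), smooth muscle actin. Acta2 read 810, 675 and 585 CPM in the controls and 2787, 2596 and 2450 CPM with progesterone. For Ccn1 they were Cdc45 (0.0447), a replication factor, Tgfb3 (0.0511), a TGF-beta ligand, and Col8a1 (0.0561), a collagen VIII chain. Tgfb3 read 125, 104 and 89.4 CPM in the controls and 366, 346 and 309 CPM with progesterone. Both had their lowest value of each group in replicate 3, as the CCN genes did, which a choice by likeness of profile favours. In the order of likeness to Ccn1, Ccn2 stood at place 19, and in that to Ccn2, Ccn1 stood at place 23. The nearest to Ccn3 were Dck, Inhba and Tcf19, with log2 fold changes of 1.22, 1.23 and 1.22. The nearest to Ccn4 were Tdp1, Rcc1l and a row with a placeholder name, and those to Ccn5 were a clone-named row, Ndufb10 and Coq6. With 2 groups of 3, this distance mostly reads how alike 2 fold changes are.

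Most markers of smooth muscle and pericytes were higher, as Ccn1 and Ccn2 were. Of 12 such markers, all tested, 10 were called higher and 2 lower, and their median log2 fold change was 1.15. Beside this and each marker count that follows stand 31.2% of all genes tested called higher and 31.8% called lower. Their summed level was 2608 to 2939 CPM in the controls and 5854 to 6448 CPM with progesterone. The sum, too, was lowest in replicate 3 of each group. That was not particular to these markers. It also held for the sums of the MRTF and SRF factors, their targets, the TGF-beta early targets and the Wnt targets described below. Itga8, an integrin chain, rose from 105 ± 0.782 to 394 ± 20.1 CPM, and Mylk, myosin light chain kinase, from 187 ± 7.8 to 400.0 ± 8.99 CPM (SD, n = 3). The markers that fell, named after their values were seen, were the potassium channel subunit genes Kcnj8, from 29.0 to 11.8 CPM, and Abcc9, from 173 to 76.6 CPM. Which cells of the culture these levels came from was not measured. Rgs5 and Cspg4, on the same list, rose from 17.1 to 47.3 CPM and from 80.5 to 152 CPM. Pdgfrb, named after its value was seen, rose 1.19-fold. The 10 fibroblast markers had 6 higher and 3 lower, with sums of 24840 to 25797 and 31424 to 33859 CPM. Col3a1, a collagen III chain, rose 2.09-fold and Ddr2, a collagen receptor, fell from 243 to 150.2 CPM. The others that fell, named after their values were seen, were Dcn, from 2094 to 946 CPM, and Pdgfra, from 804 to 370 CPM. Most of the fibroblast sum was Col3a1, from 6556 to 13735 CPM, and Col1a1, from 14907 to 16727 CPM. The 5 leukocyte markers tested were all higher, at sums of 20.01 to 36.3 and 154 to 176 CPM. Of the 5 leukocyte markers too low to be tested, the T cell gene Cd3e had no count. The 9 endothelial markers had 3 higher and 3 lower, with sums of 177 to 229 and 146 to 195 CPM. Without control replicate 1, 1 endothelial marker was higher, and with the replicate number as a block 5 were lower. The 8 epicardial and mesothelial markers had 4 higher and 3 lower, with sums of 180 to 191 and 228 to 252 CPM. Of 10 markers of cardiomyocytes, the labelled cell type, 9 were tested, 2 were higher and 4 lower, at sums of 9596 to 10192 and 8268 to 9125 CPM. Tnnc1, cardiac troponin C, rose from 569 to 818 CPM and Actn2, an actin crosslinker of the Z disc, from 818 to 1008 CPM. Tnnt2, cardiac troponin T, fell from 2307 to 1881 CPM and Myh6, a cardiac myosin heavy chain, from 4384 to 3498 CPM. With upper quartile scaling, 2 cardiomyocyte markers and 1 epicardial marker were lower. The part of these markers in the CCN levels was not tested.

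Genes for CCN receptors and co-receptors did not move as one. Of 17 listed, 14 were tested, 7 were higher and 4 lower, and the median log2 fold change was 0.11. For this list and those below, the shares over all genes tested were 31.2% higher and 31.8% lower. Sdc4, syndecan 4, a heparan sulfate proteoglycan of focal adhesions, fell from 214 ± 11.3 to 93.3 ± 4.6 CPM. Itga5, the fibronectin receptor chain, fell from 270.3 ± 2.78 to 180.2 ± 13.5 CPM. Fgfr2, which Ccn2 can bind, rose from 36.1 ± 1.55 to 76.9 ± 4.58 CPM, and Itga6, a laminin receptor chain, rose 1.38-fold. The remaining receptor genes that fell, named after their values were seen, were Itgav at a log2 fold change of -0.33 and Lrp1 at -0.34.

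Of the 8 genes for YAP, TAZ, TEAD and VGLL factors, 4 rose and 2 fell (median log2 fold change 0.14). Yap1, Tead3 and Tead1 rose by 0.55, 0.43 and 0.31 on the log2 scale. Wwtr1, which encodes TAZ, fell by 0.31. The other factors that passed, named after their values were seen, were Vgll3 at 0.23 and Tead4 at -0.46. Without the CCN genes, the signature of YAP and TEAD targets had 6 of 19 tested genes higher and 7 lower (median 0.09), or 10 higher and 5 lower with upper quartile scaling. The counts with TMM scaling lie near the shares over all genes tested, 31.2% higher and 31.8% lower. Tgfb2, a TGF-beta ligand, rose 2.59-fold and Fjx1, a Golgi kinase gene of the Fat and Dachsous system, 1.94-fold. Axl, a receptor tyrosine kinase, and Igfbp3, an IGF binding protein, fell, with log2 fold changes of -0.94 and -2.24.

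Genes regulated by SRF, which also acts on Ccn1 and Ccn2 with its MRTF cofactors, were mostly higher. Of 15 MRTF and SRF targets, 14 were higher and 1, Itga5, was lower, and the median log2 fold change was 0.89. Fhl1, a LIM protein of muscle, rose from 417 ± 25.5 to 1007 ± 40.1 CPM, Flna, an actin crosslinker, from 1235 ± 56.5 to 2795 ± 159 CPM and Vcl, vinculin, from 457 ± 12.8 to 906 ± 32.3 CPM. Srf itself rose from 105 ± 3.27 to 194 ± 2 CPM. Of 4 listed MRTF and SRF factors, 3 were tested, 2 were higher and none was lower. Srf was one, and Myocd, a muscle cofactor of SRF, rose by 0.34 on the log2 scale, while Mrtfa had a value of -0.03 and did not pass (edgeR adjusted p = 0.703). Of the targets, Acta2, Cnn1 and Tagln, named here for their overlap, are also on the smooth muscle list. Other lists share genes too, so their counts are not independent. Srf is among both factors and targets, and Itga5 among the CCN receptors and these targets. Tgfb2 is among the YAP and TEAD targets and the TGF-beta components, and Smad7 and Tgfb1 are on both TGF-beta lists below.

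The TGF-beta system, which induces Ccn2, was mixed at the level of its own components. Of 10 ligands, receptors and SMADs, 5 rose and 3 fell (median log2 fold change 0.15). Tgfb2 rose, as did Tgfb3, whereas Tgfbr3, Smad3 and Tgfbr2 fell, with log2 fold changes of -1.02, -0.81 and -0.69. Of 11 early TGF-beta targets, 6 were higher and 1 lower (median 0.40). Timp3, a metalloproteinase inhibitor, rose from 57.3 ± 1.99 to 156 ± 4.46 CPM, and Pmepa1, Tgfbi and Ltbp2 rose 1.72-fold, 1.84-fold and 1.42-fold. The gene that fell, named after its value was seen, was Bhlhe40 (-0.71), and without progesterone replicate 2 the number lower was 3.

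Among Wnt and beta-catenin targets, the system for which Ccn4 was named, 9 of 14 listed genes were tested, 5 rose and 2 fell (median log2 fold change 0.67). Nkd2 and Nkd1, inhibitors of Wnt signalling, rose 3.19-fold and 1.62-fold. Dkk2, a secreted Wnt modulator, and Tcf7, a partner of beta-catenin, rose 6.56-fold and 2.35-fold from about 1.03 and 1.84 CPM. The genes that fell, named after their values were seen, were Ccnd1 (-0.31) and Rnf43 (-1.04). The number lower was 1 without control replicate 3 and without progesterone replicate 3.

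Other matricellular genes rose in 7 of 15 tested members and fell in 1 (median log2 fold change 0.21). Tnc, tenascin C, rose from 152 ± 11.8 to 811 ± 31.9 CPM, Fbln5, an elastic fibre protein, from 65.3 ± 4.05 to 197 ± 11.6 CPM and Thbs1, thrombospondin, from 606 ± 43.9 to 1544 ± 52.5 CPM. Igfbp7, which shares the IGF binding module with CCN proteins, rose 1.16-fold. The gene that fell, named after its value was seen, was Thbs2 (-0.15, edgeR adjusted p = 0.0449). It was no longer called with upper quartile scaling, or without control replicate 3, progesterone replicate 1 or progesterone replicate 2.

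**Figure D5:**
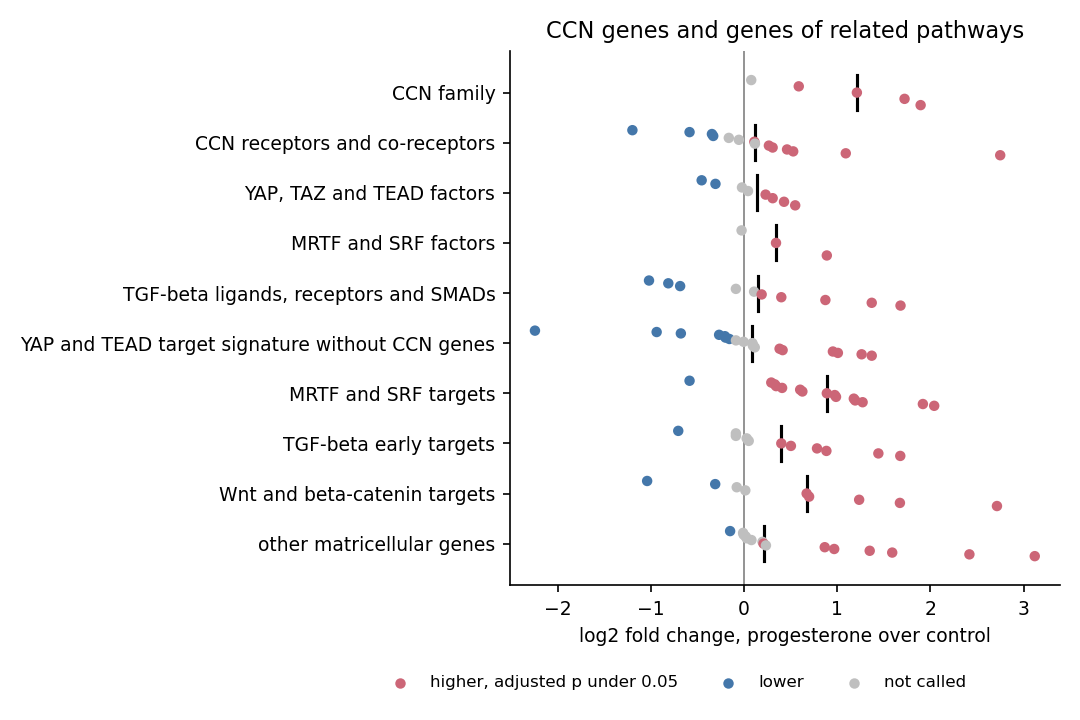
Log2 fold change (x axis, progesterone over control) of each tested gene in the CCN family and in 9 lists of related genes; red points were higher and blue points lower at an adjusted p under 0.05, grey points were not called, and black bars are list medians. The CCN median of 1.21 and the MRTF and SRF target median of 0.89 lie above the YAP and TEAD signature median of 0.09.

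Genes beside the members on the chromosome moved in both directions. Enpp2, the next row after Ccn3 (97372 bases away), which encodes the enzyme that makes lysophosphatidic acid, had 11633 counts over the controls and 260 with progesterone, a log2 fold change of -5.36 ± 0.17 (SE). Enpp1, 38289 bases from Ccn2, and Ndrg1, 10551 bases from Ccn4, fell, with log2 fold changes of -0.74 and -0.20. Tg, 42316 bases from Ccn4 on the other side, and Kcnk15, 12583 bases from Ccn5, rose by 1.30 and 3.95. Znhit6, 44595 bases from Ccn1, rose by 0.36, and Mal2, 211375 bases from Ccn3, by 3.27. No row overlapped a member. An assembled locus without a gene name started 47 bases beyond the start of Ccn1, on the opposite strand, with 89 counts over the controls and 158 with progesterone, against 5191 and 15568 for Ccn1. Whether counting used strand is not stated, so reads of this pair may not be separable.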

How the data were processed

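mRNA-enriched libraries (TruSeq RNA kit, per the labels' protocols) were grouped by title into 3 control and 3 progesterone samples. The authors deposited raw counts per gene and FPKM per gene; the FPKM divisor was within 1.57% of each library's count total. Bowtie 0.12.2 and mm8, a mouse build, appear in the submitters' processing notes, although rows carry rat Ensembl identifiers; for the rat build, annotation, counter and strand setting, the sources used here say nothing.

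Counts were tested with edgeR 4.0.16 (R 4.3.3; low counts removed by filterByExpr at 10 per library and 15 in total, TMM scaling, robust quasi-likelihood fit, Benjamini-Hochberg over 15075 genes, threshold 0.05), checked on simulated data. The SE was derived from the F statistic. CPM values are TMM-scaled. FPKM served to compare genes per length. Shares and ratios were compared by exact permutation (scipy 1.17.1). No library was a copy of another (chi-square over its degrees of freedom, 5.57 to 9.79 within groups).

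The members, lists and tests were chosen with earlier results of these data known. Named genes are the members, up to 4 per list with the smallest adjusted p, the 3 nearest profiles per member and the adjacent rows. Genes without a row of their symbol were not analysed here. Alternatives were other scalings (RLE, upper quartile, library size), 2 filters, each replicate left out, a replicate block, DESeq2 1.42.0 and limma 3.58.1 on log2(FPKM + 1) and log2(FPKM + 0.1).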

Additional observations from a re-analysis of the deposited data

How the results depend on the processing

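Over the 15 alternatives, Ccn1, Ccn2, Ccn3 and Ccn4 kept their direction and stayed past the threshold, with log2 fold changes of 1.59 to 1.87, 1.82 to 1.99, 1.13 to 1.31 and 0.51 to 0.68, and no member was lower. Ccn5 lay between 0.04 and 0.17 and passed only with upper quartile scaling (0.17, adjusted p = 0.00709; adjusted p up to 0.574 elsewhere). That scaling also gave 10 genes of the YAP and TEAD signature as higher, 0 other matricellular genes as lower and 60.1% of all called genes as higher, against 49.6% with TMM scaling; the cause was not tested. Leaving out single replicates, the number lower ranged from 1 to 3 among TGF-beta early targets, from 1 to 2 among Wnt targets and from 0 to 1 among other matricellular genes. Shares and pairwise differences of the members kept their direction under the alternatives run. Over all genes tested, same-numbered samples did not deviate together (correlations 0.0323, 0.0191 and -0.00969). All 5 members, however, were lowest in replicate 3 of both groups, so whether the numbers pair the samples is not settled. With the replicate block, 4 members and 4691 genes in all were higher and 4817 lower, and Ccn1 was at 1.74. The edgeR adjusted p with the block was 7.42e-06 for Ccn1 and 1.30e-15 for Ccn2, against 0.0005 and 7.56e-07 without it. With 3 libraries a group, ratios between members cannot reach an exact p below 0.1.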
